A study of Mus musculus with 5 samples.

Results

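Induced SM22-tet-BMPR2delx4+ lung was compared with doxycycline-treated SM22-rtTA lung, a pair of conditions that share the drug and differ in the mutant receptor. The comparison takes 2 of the 5 arrays of the study by their titles, 1 array of pooled whole-lung RNA a side, and covers the 7542 of 12393 genes that were measured, that is, above a noise floor in at least 1 of the 2 pools. In SM22-tet-BMPR2delx4+ mice, doxycycline (dox) turns on a mutant BMPR2, the type II receptor for bone morphogenetic proteins (BMPs), that acts as a dominant negative and is driven by the smooth muscle promoter SM22 (the gene Tagln). This induced pool had a right ventricular pressure of 50 ± 8 mmHg. SM22-rtTA mice carry the dox-dependent activator rtTA under the same promoter, also received dox, and had 30 ± 3 mmHg. The other pools were BMPR2delx4+ mice without dox (the uninduced pool, 30 ± 3 mmHg), 8-week-old FVB/N mice kept in hypoxia for 4 weeks (50 ± 8 mmHg) and wild-type FVB/N mice of 8 weeks (30 ± 3 mmHg). For the transgenic pools the titles give 8 weeks, which may be age or treatment time, and no background strain. The kind of error after each pressure and the number of animals in a pool are not stated. With 1 pool a side there is no replicate check, so every difference below compares these pools and carries no test. Genotype and pressure differ together here and cannot be told apart.

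BMP ligands bind a complex of type I receptors and the type II receptor BMPR2. In it BMPR2 phosphorylates the type I receptors, which phosphorylate SMAD proteins that switch on targets such as the Id genes. In the lung this signal acts in the endothelium and smooth muscle of pulmonary arteries, and loss of BMPR2 function is the main known genetic cause of heritable pulmonary arterial hypertension. SM22 is active in smooth muscle of vessels and airways and, during development, in heart and skeletal muscle.

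Values below are scaled intensities unless called log2 ratios, which are always the induced pool over SM22-rtTA. Intensities under 276, the noise floor, were raised to it, and where 1 pool is at the floor the ratio is given as a bound, "at least". A gene was called where the pools were at least 2-fold apart. Both pools carried lung transcripts: surfactant protein C (Sftpc) was at 10706 in the induced pool and at 11161 in SM22-rtTA, and the club cell protein Scgb1a1 was at 11445 in the induced pool and 11188 in SM22-rtTA. Kidney genes on the array summed to 4570 in the induced and 4612 in the SM22-rtTA pool, against 65448 in wild type, and none of the 4 measured was called. Bmpr2, the gene of the mutant receptor, was at the floor in the induced pool and at 357 in SM22-rtTA, and at the floor in the other 3 pools. Whether its 1 probe set reads the transgene could not be determined, and induction was not checked by it. Tagln, whose promoter drives the system, was at 3915 in the induced pool and at 2768 in SM22-rtTA, a log2 ratio of 0.50.

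The induced pool had 240 genes higher and 124 lower than SM22-rtTA, which is 3.18% and 1.64% of the measured genes. The larger differences lay on the higher side: 62 genes were at least 4-fold higher and 19 at least 8-fold, against 5 and 0 lower. Muscle, squamous and fat lists held 66 of the 240. The median log2 ratio over all measured genes was 0.08, and the SD over the 6465 genes above the floor in both pools was 0.48. Between the SM22-rtTA and uninduced pools, both at normal pressure, 42 genes were higher and 64 lower (0.58% and 0.883% of 7245) and the SD was 0.34. That pair differs in genotype and in dox, so it is no replicate error, but it is the nearest measure of pool-to-pool spread. At 1.5-fold the induced pool had 11.1% of measured genes higher and 6.96% lower than SM22-rtTA, and SM22-rtTA had 3.56% higher and 5.34% lower than the uninduced pool. Just inside the 2-fold limit stood Clasp2 (930 induced, 465 SM22-rtTA) and Ighv14-2 (518 induced, 1042 SM22-rtTA), and just outside it Zscan26 (764 induced, 382 SM22-rtTA) and Itgal (298 induced, 596 SM22-rtTA).

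**Figure D1:**
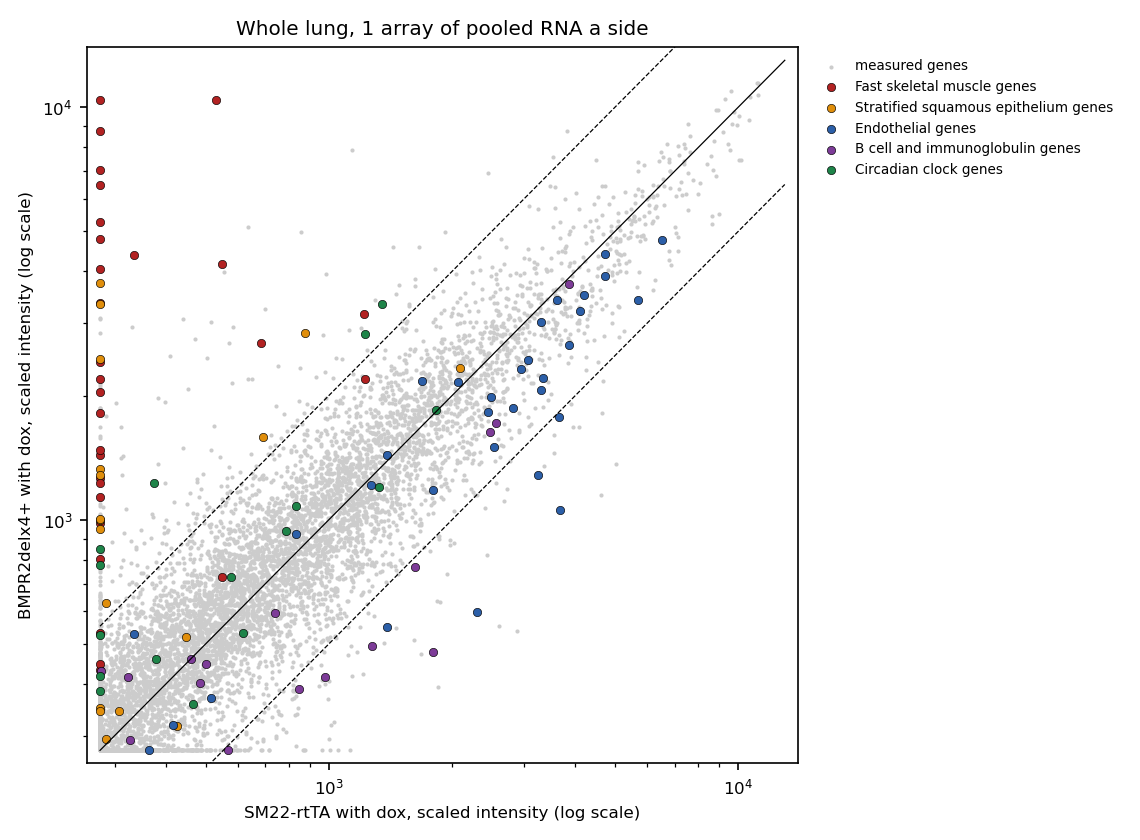
Scaled intensity of each measured gene in the induced pool (vertical, log scale) against SM22-rtTA (horizontal, log scale), with dashed lines at 2-fold and genes of 5 lists in colour. Fast skeletal and squamous genes line the left edge, where SM22-rtTA was at the floor, endothelial genes lie mostly under the diagonal, and the coloured B cell genes under the lower dashed line are 6.

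The other pools show which side a difference lay on. Among the 240 higher genes, the induced pool was the highest of the 5 in 189 and SM22-rtTA the single lowest in 90. The 66 genes of the muscle, squamous and fat lists were nearer to SM22-rtTA in the uninduced pool without exception, whereas the other 174 split into 91 nearer to SM22-rtTA and 83 nearer to the induced pool. Among the 124 lower genes the SM22-rtTA pool was the highest of the 5 in 107 and the induced pool the lowest in 76, and 14 genes were at least 2-fold higher in SM22-rtTA than in every other pool. The uninduced pool was nearer to the induced pool for 75 of the 124. A ratio in this comparison therefore holds differences of either pool from the rest, and the other pools are given beside the genes below.

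Choice of probe set bears on the balance of directions. Each gene was read from its brightest probe set. Where a called gene had another probe set above the floor, all of them had the same sign for 66 of 78 higher genes and 35 of 40 lower genes. Of the measured probe sets that stand for no gene because a brighter one exists, 107 of 3687 were higher (2.90%) and 265 were lower (7.19%). Counted one probe set at a time, 347 were higher and 389 lower. Among genes named below that were not called, Col1a1, Csf1r, Hk1, Smad1, Smad4 and Tsc22d3 also had a dimmer probe set of opposite sign, and where a dimmer probe set of such a gene passed 2-fold its value is given beside the gene.

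Of 68 gene lists, 21 had members called higher and none lower, 17 had members called lower and none higher, 5 had both and 25 had neither. A list is described by its counts and by its median log2 ratio over measured members, with bounds entered at their bound. These are to be read against the median of 0.08 and the 3.18% and 1.64% called over all measured genes. Of all 7542 measured genes, 4386 had a ratio above 0 and 3156 under 0. For ranks among the 5 pools the share over all measured genes is not given. RNA came from whole lung, so more or fewer cells of a type and more or less RNA per cell cannot be told apart.

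**Figure D2:**
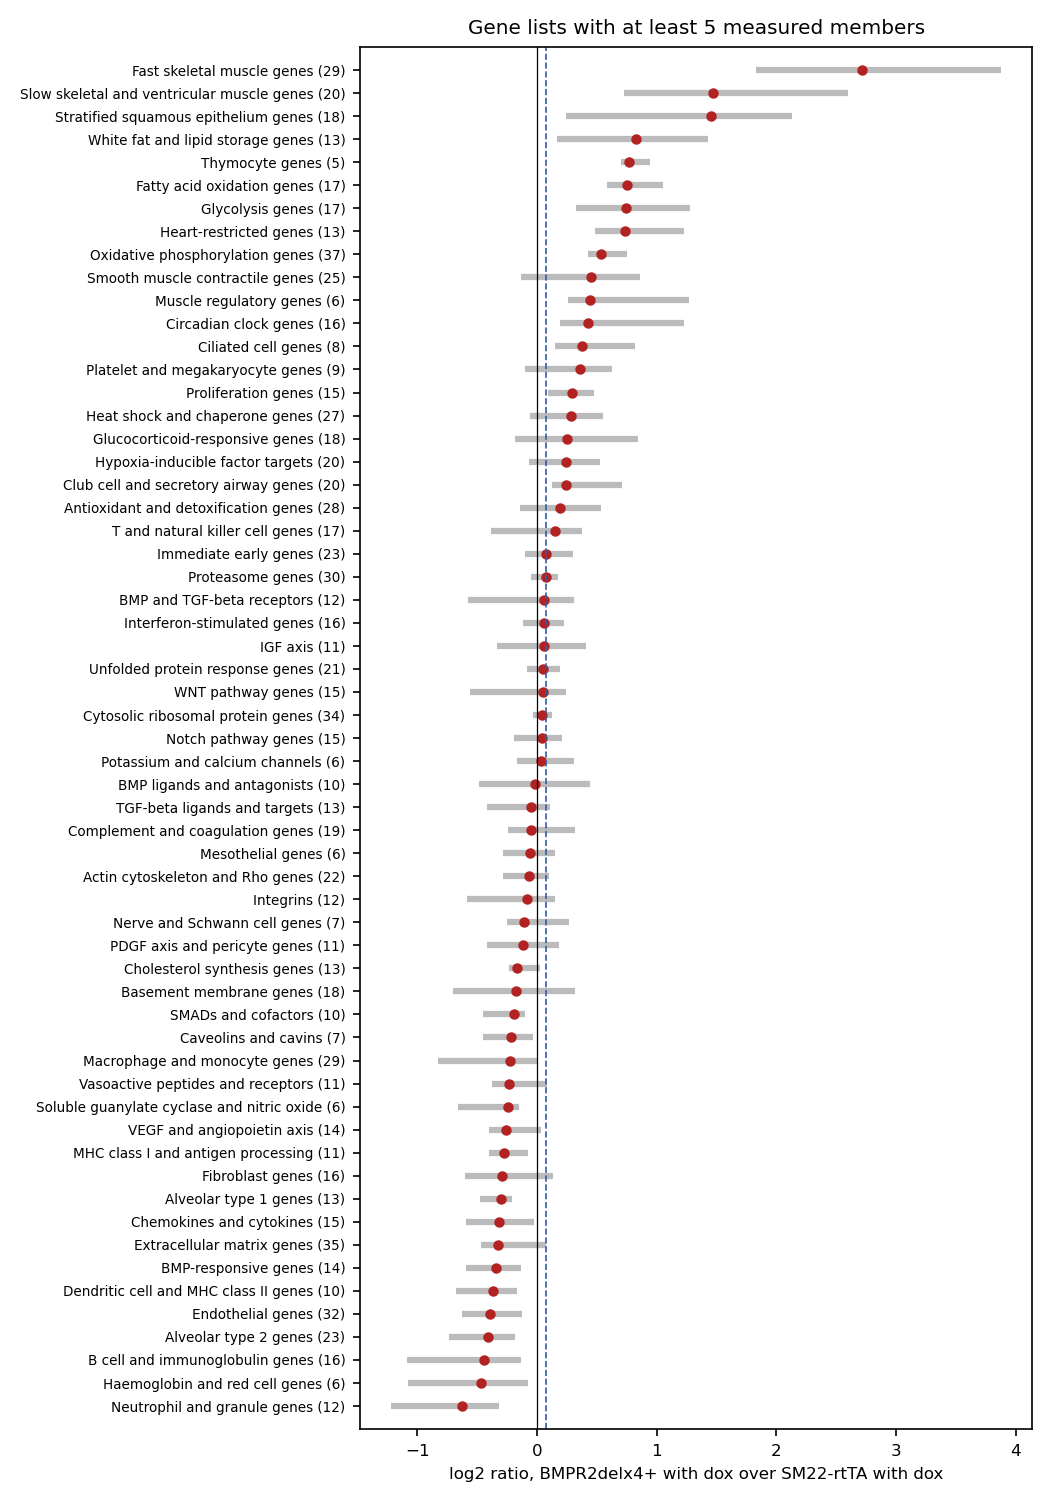
Median log2 ratio (red points) and middle 50% of members (grey bars) for each list with at least 5 measured members, whose number stands in brackets; the dashed line marks the median over all measured genes. Fast skeletal muscle genes lie at the top with 2.72 and neutrophil genes at the bottom with -0.62.

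Striated muscle genes held the highest ratios. Of 29 measured genes of fast skeletal muscle 24 were higher and 0 lower, with a median log2 ratio of 2.72. The induced pool was the highest of the 5 for all 29. For 22 of the 29 SM22-rtTA was at the floor, so they counted as measured through the induced pool alone. Their ratios could only lie above 0. Skeletal actin Acta1, the thin filament of the sarcomere, was at 10435 in the induced pool and at the floor in SM22-rtTA, at least 37.8-fold higher. The fast troponin Tnni2, which holds the thin filament off in the absence of calcium, was at 8770 in the induced pool and at the floor in SM22-rtTA, at least 31.7-fold higher. The fast light chains Myl1 and Mylpf, parts of the myosin motor, were at 7038 and 5278 in the induced pool and at the floor in SM22-rtTA, at least 25.5-fold and 19.1-fold higher. Muscle creatine kinase Ckm, which buffers ATP, was at 10428 in the induced pool and at 530 in SM22-rtTA, 19.7-fold higher. The calcium pump Atp2a1, which relaxes fast fibres, was at 4798 in the induced pool and at the floor in SM22-rtTA. These genes were low in all pools at normal pressure: Acta1 was at 677 in the uninduced pool and at the floor in wild type, and reached 5064 in the hypoxic pool. Summed over the 31 members on the array, the list was at 96736 in the induced pool and at 11724 in SM22-rtTA, against 13191 in the uninduced, 27228 in the hypoxic and 12419 in the wild-type pool. The factors that specify skeletal muscle (Myod1, Myf5, Myf6, Myog and Pax7) were not above the floor in either pool. Of 6 measured genes on the muscle regulatory list, 2 were higher and 0 lower, with 5 ratios above 0 and 1 under 0. The higher ones included the factor Mef2c, at 1231 in the induced pool and 399 in SM22-rtTA, with 432 in the uninduced pool.

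The promoters of 4 of these genes, all of which hold the E-box CAGCTG, are printed to show that sequence in its place. They are from RefSeq on GRCm38.p6, from 250 bases before to 50 after the transcription start, read 5′ to 3′ on the gene's strand: Acta1 at chr8:123894726-123895025 (minus), Ckm at chr7:19410844-19411143 (plus), Myl1 at chr1:66945007-66945306 (minus) and Mylpf at chr7:127211358-127211657 (plus). Capitals mark CAGCTG, the E-box that myogenic factors are known to bind and that reads the same on both strands, and in Acta1 also a CArG box, the site of serum response factor, which does not overlap the E-box.
Acta1: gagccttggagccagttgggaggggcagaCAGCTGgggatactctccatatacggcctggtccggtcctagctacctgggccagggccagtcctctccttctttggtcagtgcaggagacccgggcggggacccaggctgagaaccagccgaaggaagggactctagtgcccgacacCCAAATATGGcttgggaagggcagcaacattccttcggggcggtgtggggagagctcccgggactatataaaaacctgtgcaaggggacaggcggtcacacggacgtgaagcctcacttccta
Ckm: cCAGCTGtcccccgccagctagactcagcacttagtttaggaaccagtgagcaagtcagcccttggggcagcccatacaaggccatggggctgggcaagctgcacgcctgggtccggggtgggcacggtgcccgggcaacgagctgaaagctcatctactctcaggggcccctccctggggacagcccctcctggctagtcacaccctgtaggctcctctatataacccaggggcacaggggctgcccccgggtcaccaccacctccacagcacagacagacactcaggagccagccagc
Myl1: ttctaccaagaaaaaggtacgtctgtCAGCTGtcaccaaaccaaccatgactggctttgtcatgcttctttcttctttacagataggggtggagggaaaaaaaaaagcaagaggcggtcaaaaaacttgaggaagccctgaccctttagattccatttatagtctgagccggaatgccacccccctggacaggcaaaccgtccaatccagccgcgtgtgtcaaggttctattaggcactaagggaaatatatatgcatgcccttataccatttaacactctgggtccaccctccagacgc
Mylpf: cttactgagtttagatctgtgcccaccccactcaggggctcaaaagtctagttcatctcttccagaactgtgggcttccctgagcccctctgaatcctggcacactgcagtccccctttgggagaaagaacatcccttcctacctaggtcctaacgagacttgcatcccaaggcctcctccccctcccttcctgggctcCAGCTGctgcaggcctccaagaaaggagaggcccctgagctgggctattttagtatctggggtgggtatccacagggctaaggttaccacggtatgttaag
CAGCTG was present in 13 of the 21 fast muscle genes that have a promoter in the RefSeq table, 61.9%, and in 18.3% of all genes there (16.3% of the windows). The CArG box was found in 2 of the 21 and in 1.81% of all genes, and the MEF2 site in 0 of the 21 and in 0.636% of all genes. Among fast muscle genes called higher, 10 of the 16 with a promoter held CAGCTG. Over all genes with a promoter, it was in 27.3% of those called higher and 22.6% of those called lower. A match describes the letters in the window and does not show that a factor bound there.

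Genes of slow fibres and of the ventricle were next, with 13 of 20 higher, 0 lower and a median log2 ratio of 1.47. For 9 of the 20 SM22-rtTA was at the floor, so their ratios could only lie above 0. Titin (Ttn), the spring of the sarcomere, was at 3093 in the induced pool and at the floor in SM22-rtTA, at least 11.2-fold higher. The light chain Myl3 was at 5127 in the induced pool and at 636 in SM22-rtTA, and the oxygen store myoglobin (Mb) at 7891 in the induced pool and 1139 in SM22-rtTA. Of 13 measured heart genes 6 were higher, with a median of 0.74: Myh6, the atrial and adult ventricular myosin of the mouse, was at 3935 in the induced pool and at 984 in SM22-rtTA. The atrial calcium pump regulator Sln was at 4993 in the induced pool and 855 in SM22-rtTA. SM22-rtTA was at the floor for 4 of the 13 heart genes and for 22 of the 29 fast genes, and the induced pool was the highest of the 5 for 11 of the 13. The cardiac factors Nkx2-5 and Gata4 were not above the floor in either pool, and the atrial peptide Nppa was at 308 in the induced pool and at the floor in SM22-rtTA.

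Stratified squamous epithelium lines the oesophagus and upper airway but not the healthy alveoli. Of 18 measured genes of this list 11 were higher and 0 lower, with a median log2 ratio of 1.45. For 10 of the 18 SM22-rtTA was at the floor, so they counted as measured through the induced pool alone. Their ratios could only lie above 0. Its keratins Krt4 and Krt13 were at 3748 and 3333 in the induced pool and at the floor in SM22-rtTA, at least 13.6-fold and 12.1-fold higher. The basal keratins Krt5 and Krt14 were at 1000 and 1331 in the induced pool and at the floor in SM22-rtTA. The hypoxic pool was higher still for Krt4 (7459) and Krt13 (5984), and the uninduced and wild-type pools were at the floor for both. The basal cell factor Trp63 and the envelope precursor Ivl were not above the floor in either pool. Summed over its 30 members on the array, the list was at 27977 in the induced pool and at 11489 in SM22-rtTA.

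Fat genes had calls on the higher side. Of 9 brown fat genes on the array 4 were measured, 2 of them through the induced pool alone, and all 4 were called higher. Among them was the uncoupling protein Ucp1, which turns respiration into heat. It was at 1600 in the induced pool and at the floor in SM22-rtTA, at least 5.79-fold higher. Cox8b, the muscle and brown fat form of a cytochrome oxidase subunit, was at 2936 in the induced pool and at 331 in SM22-rtTA. Wild type carried these transcripts too, with Ucp1 at 797 and Cox8b at 1485. It had 6 brown fat genes above the floor, against 4 in the induced pool. In the uninduced and hypoxic pools Ucp1 was at the floor. Of 13 white fat and lipid storage genes 6 were higher, such as the lipogenic Thrsp (2745 induced, 472 SM22-rtTA) and the fatty acid binding protein Fabp4 (3521 induced, 1457 SM22-rtTA). The fatty acid transporter Cd36, which capillaries express as well, had a log2 ratio of -0.87. Wild type was higher than the induced pool for Fabp4 (6266). The white fat and lipid storage list summed to 42311 in wild type, against 31923 in the induced and 20535 in the SM22-rtTA pool.

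Genes of the pathways that burn fuel had ratios mostly above 0. All 37 measured oxidative phosphorylation genes had a ratio above 0, with a median of 0.53, though cytochrome c (Cycs, 2883 in the induced pool and 1119 in SM22-rtTA) and Cyc1 (3701 induced, 1482 SM22-rtTA) were the 2 called. The induced pool was the highest of the 5 for 1 of the 37. Summed over its 38 members on the array, the list was at 123663 in the induced pool and 86030 in SM22-rtTA, with 85458 in the uninduced, 85355 in the hypoxic and 178695 in the wild-type pool. Wild type was also above the induced pool for Cycs (5532) and Cyc1 (4919). Kidney and adrenal genes summed to 65448 and 14532 in wild type, against 4570 and 5279 in the induced pool. The part of such transcripts in the wild-type values was not tested. Of 17 fatty acid oxidation genes 5 were higher, led by Pdk4, which keeps pyruvate out of the mitochondrion, at 1425 in the induced pool and 315 in SM22-rtTA. Of 17 glycolysis genes 6 were higher, with a median of 0.75. They were the muscle isoforms Eno3 (4392 induced, 335 SM22-rtTA), Pgam2 (1815 induced, the floor SM22-rtTA) and Pfkm (2469 induced, 504 SM22-rtTA), the hexokinase Hk2 of muscle and fat (1416 induced, 310 SM22-rtTA), and the widely used Aldoa (8739 induced, 3825 SM22-rtTA) and Tpi1 (2917 induced, 1200 SM22-rtTA). Other isoforms that most tissues use were not called, such as Pfkl (979 induced, 1006 SM22-rtTA) and Hk1 (1273 induced, 1215 SM22-rtTA). The part of muscle and fat markers in these ratios was not tested.

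Contractile genes of smooth muscle, where the transgene is driven, had 6 of 25 members higher, 1 lower and a median log2 ratio of 0.45. Calponin Cnn1, an actin-binding regulator of smooth muscle, was at 1346 in the induced pool and at 572 in SM22-rtTA. Enteric smooth muscle actin Actg2 was at 1609 in the induced pool and 724 in SM22-rtTA. Smooth muscle actin Acta2 (5655 induced, 3238 SM22-rtTA) and the smooth muscle myosin Myh11 (2094 induced, 1151 SM22-rtTA) stayed under 2-fold, with log2 ratios of 0.80 and 0.86. The uninduced pool stood close to the induced one for Cnn1 (1254), Acta2 (5234) and Myh11 (1924), so that both BMPR2delx4+ pools stood above the other 3, as they did for Tagln (3633 in the uninduced pool). Actg2, at 1020 in the uninduced pool, was nearer to SM22-rtTA, as were 14 of the 25 members in all. Over the list, the median was 0.11 for the induced over the uninduced pool, which shares the induced array, and -0.15 for SM22-rtTA over the uninduced pool. Des (2799 induced, 968 SM22-rtTA), Tpm1 (6949 induced, 2444 SM22-rtTA), Tpm2 (3834 induced, 1620 SM22-rtTA) and Pdlim3 (1025 induced, the floor SM22-rtTA) are also genes of striated muscle, and for Tpm1 another probe set had the opposite sign. Of the 6 called higher, 4 thus belong to striated muscle too. The lower member was Itga8, an integrin chain of smooth muscle and alveolar mesenchyme, at 554 in the induced pool and at 2610 in SM22-rtTA.

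**Figure D3:**
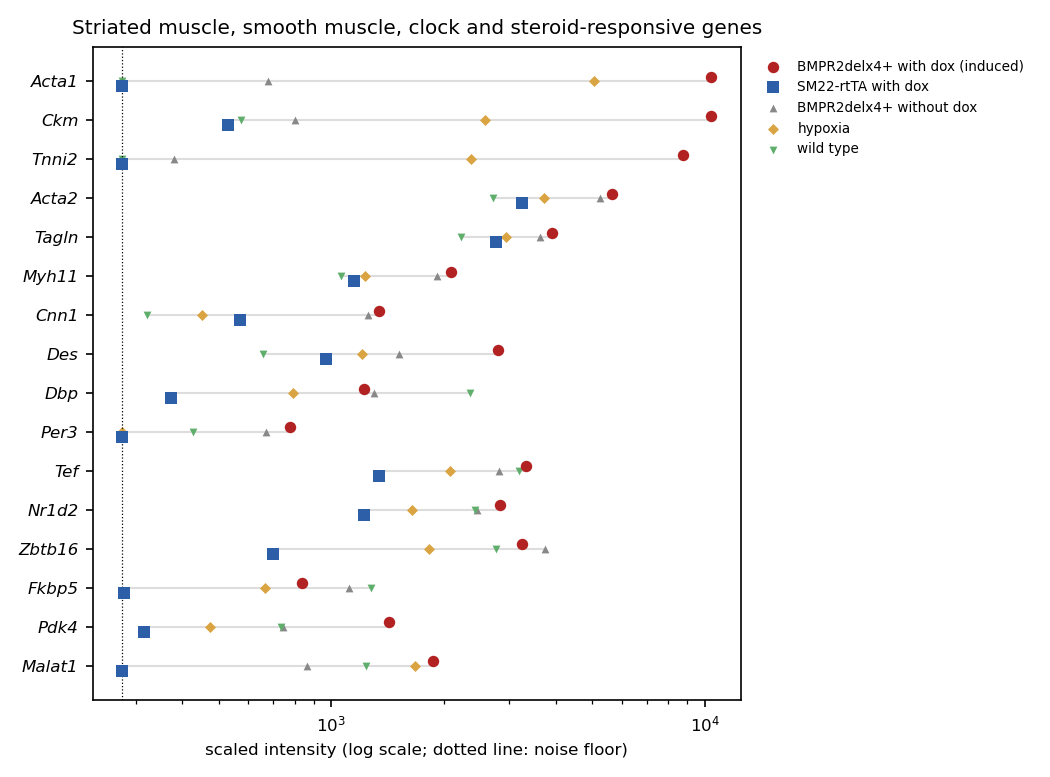
Scaled intensity (log scale) in all 5 pools of 3 fast muscle genes, 5 smooth muscle genes, 4 clock genes, 3 steroid-responsive or metabolic genes and Malat1, with the floor as a dotted line. The induced pool stands alone to the right for Acta1, Ckm and Tnni2, whereas SM22-rtTA stands alone to the left for Dbp, Zbtb16 and Tef.

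Among BMP and TGF-beta receptors 0 of 12 were higher and 2 were lower, while 7 had ratios above 0 and 5 under 0. The median log2 ratio was 0.06, which becomes -0.34 with the mean of all probe sets. Receptors with log2 ratios above 0 included Acvr2b (0.64), Acvr1b (0.51) and Acvr2a (0.24). Acvrl1 (ALK1), the type I receptor of endothelium, was at 1282 in the induced pool and at 3246 in SM22-rtTA, 2.53-fold lower, with 1832 in the uninduced, 2072 in the hypoxic and 1492 in the wild-type pool. The co-receptor Tgfbr3 (betaglycan) was at 283 in the induced pool and at 592 in SM22-rtTA. For both, the induced pool was the lowest and SM22-rtTA the highest of the 5. Endoglin (Eng), the partner of Acvrl1, was at 2651 in the induced pool and 3865 in SM22-rtTA, a log2 ratio of -0.54, and Tgfbr2 was at 1818 in the induced pool and 2921 in SM22-rtTA, a log2 ratio of -0.68. The type I receptor Bmpr1a, at 833 in the induced pool and 782 in SM22-rtTA, had a log2 ratio of 0.09, but its 3 dimmer probe sets above the floor were at -0.79, -0.68 and -0.06. A dimmer probe set of Tgfbr2 was at the floor in the induced pool and at 1654 in SM22-rtTA, a bound of -2.58.

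Genes that BMP signals switch on had ratios mostly under 0, none of them past 2-fold. Of 14 measured members, 11 had a ratio under 0, 0 were called, and the median log2 ratio was -0.34. Id1, the classical SMAD target that blocks differentiation factors, was at 1576 in the induced pool and at 2787 in SM22-rtTA, a log2 ratio of -0.82. The other 3 pools held Id1 between 2759 and 3153, so the induced pool stood apart. Id3 (1753 induced, 2192 SM22-rtTA), Id2 (657 induced, 830 SM22-rtTA) and Tmem100, a BMP target of endothelium (2316 induced, 2955 SM22-rtTA), had log2 ratios of -0.32, -0.34 and -0.35. The inhibitory Smad7, which feeds back on the receptors, was at 862 in the induced pool and at 1618 in SM22-rtTA, a log2 ratio of -0.91. The induced pool was the lowest of the 5 for 8 of the 14. Id4 (0.36), Hes1 (0.31) and the pseudoreceptor Bambi (0.53) had log2 ratios above 0. Beside the uninduced pool, which shares the induced array, the list median was -0.41, and for SM22-rtTA over the uninduced pool it was -0.01. Several members are endothelial genes, a list with a median log2 ratio of -0.39 and 27 of 32 ratios under 0. The part of endothelial genes in these ratios was not tested.

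**Figure D4:**
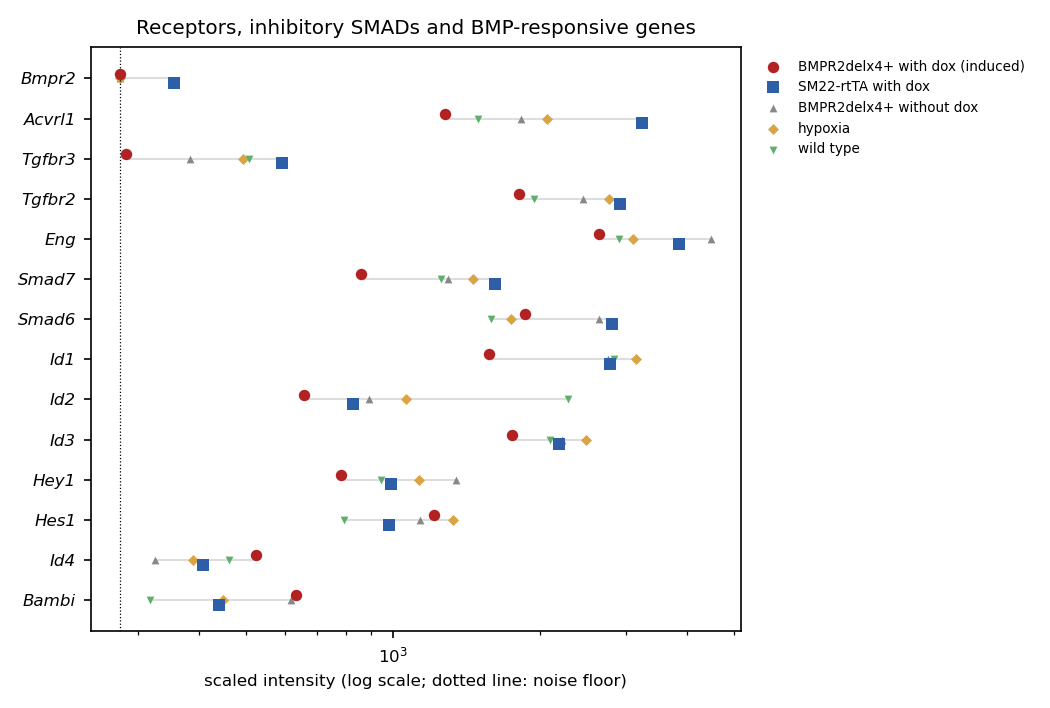
Scaled intensity (log scale) in all 5 pools of 5 receptors or co-receptors, 2 inhibitory SMADs and BMP-responsive genes, with the floor as a dotted line. The induced pool is the leftmost point for Acvrl1, Tgfbr3, Smad7, Id1, Id2 and Id3, and SM22-rtTA the rightmost for Acvrl1, Tgfbr3 and Smad7.

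None of 10 BMP ligands and antagonists and none of 10 SMADs and cofactors was called. Bmp6, an endothelial ligand, was at 1151 in the induced pool and at 2298 in SM22-rtTA, a log2 ratio of -0.998 that lay just under the limit, and the BMP-binding Twsg1 was at 1048 in the induced pool and 2025 in SM22-rtTA, a log2 ratio of -0.95 that was -1.86 and -1.72 by its dimmer probe sets. The signal transducers Smad1 (654 induced, 730 SM22-rtTA), Smad4 (1843 induced, 1756 SM22-rtTA) and Smad5 (286 induced, 388 SM22-rtTA) had log2 ratios of -0.16, 0.07 and -0.44. Among TGF-beta ligands and targets Tgfb1, the founding ligand of the family, was the 1 of 13 that was called, at 594 in the induced pool and 1249 in SM22-rtTA.

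The 15 lowest ratios above the floor in both pools included genes of mesenchyme and vessels, the B cell gene Cd79a and the myeloid genes Ccl6 and Chil3. The secreted guidance factor Sema3c was at 537 in the induced pool and at 2885 in SM22-rtTA, 5.37-fold lower. Gucy1a1, a subunit of the nitric oxide receptor of smooth muscle and pericytes, was at 392 in the induced pool and 1847 in SM22-rtTA, 4.71-fold lower, and its partner Gucy1b1 at 1247 in the induced pool and 2160 in SM22-rtTA, a log2 ratio of -0.79, or -1.71 by its dimmer probe set. Epas1 (HIF-2alpha), the oxygen-regulated factor of lung endothelium, was at 1150 in the induced pool and 4613 in SM22-rtTA, 4.01-fold lower. Foxf1, the factor that forms lung mesenchyme and capillaries, was at 597 in the induced pool and 2302 in SM22-rtTA, 3.85-fold lower. The microfibril protein Mfap4 was at 1368 in the induced pool and 5028 in SM22-rtTA, 3.68-fold lower. These ratios rested on both pools: SM22-rtTA was the highest of the 5 for each of Sema3c, Gucy1a1, Epas1, Foxf1, Itga8 and Mfap4, and the induced pool the lowest. In the uninduced pool Epas1 was at 1542 and Gucy1a1 at 626, nearer to the induced pool, whereas Mfap4 was at 3969, nearer to SM22-rtTA.

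**Figure D5:**
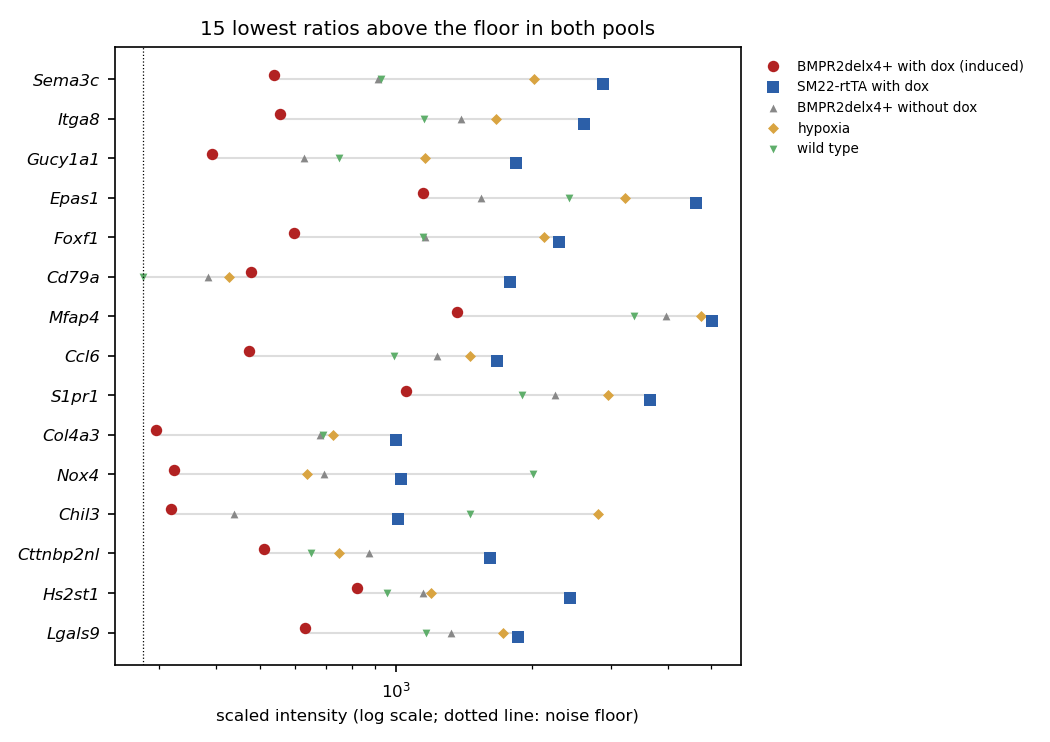
Scaled intensity (log scale) in all 5 pools of the 15 genes with the lowest ratios among those above the floor in both pools. The induced pool is the leftmost point for each gene except Cd79a, where wild type, the uninduced and the hypoxic pools are lower, and SM22-rtTA is the rightmost for all but Nox4 and Chil3.

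Endothelial genes had 5 of 32 lower, 0 higher and a median log2 ratio of -0.39, and 27 of the 32 were under 0. Beside Foxf1 and Acvrl1 the called members were S1pr1, the receptor for sphingosine phosphate that keeps vessels tight (1054 induced, 3666 SM22-rtTA), the sialomucin Emcn (550 induced, 1391 SM22-rtTA) and the vessel C-type lectin Clec14a (1774 induced, 3650 SM22-rtTA). Junctional Cldn5 was at 3407 in the induced pool and 5692 in SM22-rtTA, and Pecam1 at 1501 in the induced pool and 2539 in SM22-rtTA, log2 ratios of -0.74 and -0.76. Vwf (2162 induced, 2066 SM22-rtTA) had a log2 ratio of 0.07. Others depended on the probe set: Cdh5 (3893 induced, 4724 SM22-rtTA) was at -0.28, but its dimmer probe set was at the floor in the induced pool and 1621 in SM22-rtTA, a bound of -2.55. Flt1 (2170 induced, 1693 SM22-rtTA) was at 0.36, with dimmer probe sets at 0.03 and -0.69. The list summed to 64617 in the induced pool and to 88913 in SM22-rtTA. It summed to 86955 in the uninduced, 83753 in the hypoxic and 67001 in the wild-type pool, so wild type was close to the induced pool. The growth factors Angpt1 (the floor induced, 1006 SM22-rtTA) and Vegfc (374 induced, 832 SM22-rtTA), which act on vessels, were lower, at least 3.64-fold and 2.22-fold. For Angpt1 the uninduced and wild-type pools were at the floor too and the hypoxic pool at 359, so SM22-rtTA stood apart. Of 11 measured PDGF axis and pericyte genes 1 was higher and 1 lower, with a median log2 ratio of -0.11 and 7 under 0. The higher one was the pericyte gene Rgs5, at 1370 in the induced pool and 384 in SM22-rtTA, 3.57-fold apart.

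The vasoactive peptide list had 0 of 11 called, with a median log2 ratio of -0.23. By the brightest probe sets its ratios ranged from -0.52 to 0.996, the latter just under the limit. Calcrl was at -0.08, but its dimmer probe set was at 312 in the induced pool and 1976 in SM22-rtTA, a log2 ratio of -2.66. Endothelin (Edn1, 1884 in the induced pool and 1838 in SM22-rtTA) had a log2 ratio of 0.04. Angiotensin-converting enzyme (Ace, 3117 induced, 3815 SM22-rtTA) had -0.29, or -0.93 by its dimmer probe set. Endothelial nitric oxide synthase (Nos3, 528 induced, 334 SM22-rtTA) had 0.66, the highest ratio on the endothelial list. Among targets of hypoxia-inducible factor Hk2 was the 1 of 20 that was higher and Epas1, itself a factor of that family, the 1 that was lower, and Vegfa was at 1841 in the induced pool and 2107 in SM22-rtTA, a log2 ratio of -0.19 that was -2.22 by a dimmer probe set.

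In the matrix, Lum and Col14a1, which organise collagen fibrils, were the 2 of 35 genes higher, Lum at 874 in the induced pool and 435 in SM22-rtTA, and Col14a1 at 698 in the induced pool and 338 in SM22-rtTA. Mfap4 was the 1 lower. Of 35 ratios 25 were under 0 with a median of -0.32, among them the elastic fibre genes Fbln5 (1190 induced, 2231 SM22-rtTA), Ltbp4 (2783 induced, 4702 SM22-rtTA) and elastin Eln (1700 induced, 2156 SM22-rtTA). SM22-rtTA was the highest of the 5 for 13. Fibrillar collagen Col1a1 was at 1588 in the induced pool and 1630 in SM22-rtTA. Of 18 basement membrane genes 3 were lower: Col4a3, a collagen of the alveolar wall (295 induced, 1001 SM22-rtTA), Col13a1 (424 induced, 1214 SM22-rtTA) and the epithelial laminin chain Lamb3 (396 induced, 948 SM22-rtTA). Nox4, an oxidase that produces hydrogen peroxide, was at 323 in the induced pool and at 1029 in SM22-rtTA. It was at 2014 in wild type, the pool in which kidney genes summed to 65448.

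Alveolar epithelial genes had ratios mostly under 0. Type 2 cell genes had 22 of 23 ratios under 0, a median of -0.41 and 3 called lower. The called members were the factor Etv5 (the floor induced, 962 SM22-rtTA, at least 3.48-fold lower), Napsa, a protease that matures surfactant proteins (1452 induced, 3549 SM22-rtTA), and Lcn2 (the floor induced, 634 SM22-rtTA), which neutrophils make as well. Surfactant genes had smaller ratios, with Sftpb at 6571 in the induced pool and 8050 in SM22-rtTA, and Sftpa1 at 7462 in the induced pool and 10170 in SM22-rtTA, log2 ratios of -0.29 and -0.45. The lipid transporter Abca3 was at 2751 in the induced pool and 2847 in SM22-rtTA, but a dimmer probe set was at 812 in the induced pool and 1781 in SM22-rtTA, a log2 ratio of -1.13. The induced pool was the lowest of the 5 for 14 of the 23. Type 1 cell genes had 12 of 13 under 0 and a median of -0.30, with Col4a3 called. Ager was at 5133 in the induced pool and 7006 in SM22-rtTA, and the water channel Aqp5 at 3069 in the induced pool and 4268 in SM22-rtTA.

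Airway genes had medians above 0. Club and secretory cell genes had a median log2 ratio of 0.24 with 17 of 20 above 0, and Cyp2f2 was at 10936 in the induced pool and 9625 in SM22-rtTA. Aldh3a1, an aldehyde dehydrogenase, was the member called, at 1473 in the induced pool and 516 in SM22-rtTA. Of 8 ciliated cell genes 2 were higher, the axonemal Rsph1 (638 induced, the floor SM22-rtTA) and Mlf1 (1675 induced, 312 SM22-rtTA), which muscle expresses as well. The ciliary master factor Foxj1 was at 947 in the induced pool and 588 in SM22-rtTA. The airway factor Sox2 was at 1073 in the induced pool and 280 in SM22-rtTA, with 549 in the uninduced pool, and was chosen after its value was seen.

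B cell genes had calls on the lower side. Of 16 B cell genes 6 were lower and 0 higher, with a median log2 ratio of -0.44. The signalling chain of the B cell receptor, Cd79a, was at 478 in the induced pool and at 1792 in SM22-rtTA, 3.75-fold lower, and Cd79b was at 390 in the induced pool and 844 in SM22-rtTA. The surface antigen Ms4a1 (CD20) was at 495 in the induced pool and 1277 in SM22-rtTA. SM22-rtTA stood apart for these: Cd79a was between the floor and 427 in the other 3 pools and Ms4a1 between the floor and 361. The B cell factor Spib (the floor induced, 568 SM22-rtTA) and the tetraspanin Cd37 (416 induced, 980 SM22-rtTA) were lower too, although another Cd37 probe set had the opposite sign. Immunoglobulin Igha followed another order, with 768 in the induced pool and 1624 in SM22-rtTA but 2178 in the uninduced pool. The list median was 0.33 for the induced over the uninduced pool, which shares the induced array, and 0.52 for SM22-rtTA over the uninduced pool.

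Myeloid genes showed a different order of pools. Of 12 neutrophil genes 5 were lower, with a median log2 ratio of -0.62. The alarmin subunits S100a8 and S100a9 were at 2174 and 1675 in the induced pool and at 4672 and 4095 in SM22-rtTA, 2.15-fold and 2.45-fold lower. The uninduced pool was higher still for both genes, at 7120 for S100a8 and 6283 for S100a9, while wild type was at the floor for both. Of 29 macrophage and monocyte genes 4 were lower and 0 higher: the chemokine Ccl6 (473 induced, 1680 SM22-rtTA), the chitinase-like Chil3 of alveolar macrophages (318 induced, 1011 SM22-rtTA), the adaptor Tyrobp (636 induced, 1841 SM22-rtTA) and the protease Ctss (1109 induced, 2679 SM22-rtTA). The growth factor receptor Csf1r, carried by most macrophages, was at 2005 in the induced pool and 1863 in SM22-rtTA. Of the 29 macrophage and monocyte genes 21 had ratios under 0 and 8 above 0, with a median log2 ratio of -0.22. The eosinophil ribonuclease Ear3 was at the floor in the induced pool and at 1127 in SM22-rtTA, at least 4.08-fold lower, with the uninduced pool at the floor. Its family members are near-identical, so the value may hold several of them.

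T cell and platelet genes were mixed, whereas the measured thymocyte genes were all above 0. Of 17 T and natural killer cell genes 9 were above 0 and 8 under 0, with a median log2 ratio of 0.15. Thy1, which fibroblasts share, was higher (767 induced, 310 SM22-rtTA). Cd3e was at 291 in the induced pool and 380 in SM22-rtTA. In contrast, Cd3d (0.37), Cd3g (0.35), Cd4 (0.77) and Cd8a (0.54) had log2 ratios above 0. All 5 measured thymocyte genes were above 0, with a median of 0.77. Of these the chromatin organiser Satb1 was called higher (1234 induced, 477 SM22-rtTA). The recombinase Rag1 was at 788 in the induced pool and 409 in SM22-rtTA, and the terminal transferase Dntt at 470 in the induced pool and the floor in SM22-rtTA. None of 9 platelet genes was called, with a median log2 ratio of 0.36. Platelet factor Pf4 was at 1718 in the induced pool and 1337 in SM22-rtTA.

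Some clock genes were higher in the induced pool than in SM22-rtTA. Of 16 measured members 5 were higher and 0 lower, with a median log2 ratio of 0.43. The output factor Dbp was at 1228 in the induced pool and at 373 in SM22-rtTA, 3.29-fold higher, and its relative Tef at 3332 in the induced pool and 1348 in SM22-rtTA, although another Tef probe set had the opposite sign. Per3, a repressor of the clock, was at 778 in the induced pool and at the floor in SM22-rtTA, at least 2.82-fold higher, and the deubiquitinase Usp2 at 848 in the induced pool and at the floor in SM22-rtTA, at least 3.07-fold. The nuclear receptor Nr1d2 was at 2826 in the induced pool and 1225 in SM22-rtTA, with a dimmer probe set at -0.12 on the log2 scale. For these 5 genes SM22-rtTA was lower than the uninduced pool, which had Dbp at 1303, Per3 at 668 and Nr1d2 at 2463. The list median was 0.21 for the induced over the uninduced pool and -0.31 for SM22-rtTA over the uninduced pool. The core activators Clock (532 induced, 616 SM22-rtTA) and Arntl (385 induced, the floor SM22-rtTA) and the repressor Per1 (1843 induced, 1826 SM22-rtTA) were not called. The hour at which lungs were taken is not stated, and its part in these ratios was not tested.

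For several glucocorticoid-responsive genes SM22-rtTA was again the low pool. Of 18 measured genes 4 were higher and 1 lower, with a median log2 ratio of 0.25. The zinc finger factor Zbtb16, strongly induced by glucocorticoids, was at 3251 in the induced pool and at 700 in SM22-rtTA, 4.64-fold higher. Fkbp5, a co-chaperone of the glucocorticoid receptor, was at 838 in the induced pool and 279 in SM22-rtTA, 3.01-fold higher, and glutamine synthetase Glul at 3329 in the induced pool and 1568 in SM22-rtTA. In the uninduced pool Zbtb16 was at 3737 and Fkbp5 at 1117, close to or above the induced pool. SM22-rtTA was the lowest of the 5 pools for 8 of the 18, and the list median was -0.19 for the induced and -0.52 for the SM22-rtTA pool, each over the uninduced one. Other members were not called, such as Tsc22d3 (4320 induced, 2993 SM22-rtTA), Dusp1 (4877 induced, 5784 SM22-rtTA) and Sgk1 (1881 induced, 3331 SM22-rtTA), with log2 ratios of 0.53, -0.25 and -0.82.

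Stress and housekeeping lists had few or no calls. Of 27 heat shock and chaperone genes 2 were higher, Fkbp5 and Hspb8 (1500 induced, 717 SM22-rtTA). Of 23 immediate early genes Egr1, the early growth response gene, was higher, at 4994 in the induced pool and 1922 in SM22-rtTA. None of 34 cytosolic ribosomal protein genes, 30 proteasome genes, 21 genes of the unfolded protein response or 15 proliferation genes was called, with medians of 0.05, 0.07, 0.05 and 0.29. The ribosomal Rplp2 was at 8532 in the induced pool and 7647 in SM22-rtTA, and the proteasome subunit Psmb4 at 2405 in the induced pool and 2210 in SM22-rtTA. Ribosomal log2 ratios ranged from -0.23 to 0.35.

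The X-linked transcript Xist, made from the inactive X chromosome of female cells, was at 1845 in the induced pool and at the floor in SM22-rtTA, at least 6.68-fold higher. It was at 689 in the uninduced pool, 1403 in the hypoxic pool and the floor in wild type. Of the Y-linked genes on the list Eif2s3y was measured, at 285 in the induced pool and 394 in SM22-rtTA. The share of females in each pool is not stated, and its part in the other ratios was not tested.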

How the data were processed

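RNA pooled from whole lungs was hybridised to 1 Affymetrix mouse array per condition. The authors deposited 1 linear intensity for each of 22626 probe sets on every array, with a lower limit of 50 that 10.5% of probe sets held in the induced and 12.0% in the SM22-rtTA column. How intensities were summarised, background-corrected and scaled is not given in the sources used here.

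The log2 intensities of an array were shifted by a constant, so that the 9046 probe sets brighter than the 50th percentile on all 5 arrays had a common median. The shift was -0.04 for the induced and -0.11 for the SM22-rtTA array. Scaled values under 276, the 50th percentile of all 5 arrays together, were raised to it. Gene names came from GEO's platform annotation, in which 20380 probe sets have 1 gene, 691 several and 1555 none, updated by gene ID through RefSeq (GRCm38.p6) for 20351. Each of 12393 genes, 4956 of which have several probe sets, was read from its brightest one by mean log2 value. With 1 array a side no test could be made, and precision is limited by the number of arrays.

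The comparison and the gene lists were chosen with earlier results of these data known, and 2 further lists, on splicing and on lung transcription factors, after the values were seen. Named by rule were Bmpr2, Tagln, the 15 highest and 15 lowest called genes above the floor in both pools, the 8 largest bounds each way, and up to 4 called members of each list, or else its 2 brightest. These were 164 genes, 112 of them called; any other gene was chosen after its values were seen. Alternatives changed the scaling, the floor, the pseudocount, the summary of probe sets, the fold, and the arrays used for scaling; the last was chosen after seeing the data, as was a count without the muscle, squamous and fat lists. Promoters from 250 bases before to 50 after the start were searched on both strands for 7 motifs: the E-boxes CAGCTG and CACGTG, the TATA box TATAAA, the D-box TTATGNAA, the SMAD element GGCGCC, the CArG box and the MEF2 site. The code was tested on simulated data. Python 3.11.15, numpy 2.4.6, pandas 2.3.3 and matplotlib 3.10.9 were used.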

Additional observations from a re-analysis of the deposited data

Results flagged for a closer look

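Of the 2246 probe sets without a single gene name in the annotation, 996 were above the floor in at least 1 of the 2 pools. Of these, 33 were at least 2-fold higher in the induced pool than in SM22-rtTA and 28 at least 2-fold lower, and none of them enters the counts of genes. The lowest had a log2 ratio of -3.79 and the highest of 3.97, each with 1 pool at the floor.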

How the results depend on the processing

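No paired analysis was possible because each condition was measured on 1 array, and for the same reason no replicate could be left out. With the floor at the 30th percentile 373 genes were higher and 190 lower, and at the 70th 138 and 52. At 1.5-fold there were 835 higher and 525 lower genes, and at 3-fold 92 and 20. Each probe set by itself gave 389 lower, and requiring the induced pool to lie outside the range of the 3 pools at normal pressure left 80 lower. Without the muscle, squamous and fat lists 174 genes were higher. The share of higher genes among those called was 65.9% as reported, 58.2% with values as deposited (212 higher, 152 lower), 60.7% with a common median over all probe sets, 61.5% after quantile normalization, 63.0% with the 2 arrays compared alone and 55.8% with the mean of the probe sets of a gene (177 higher, 140 lower).

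List medians moved by more than 0.34, the SD between the SM22-rtTA and uninduced pools, in these cases. With the floor at the 30th percentile they were 0.996 for squamous, 3.09 for fast muscle, 1.89 for slow muscle, 1.17 for heart, -0.095 for haemoglobin, 0.029 for sex chromosome and 0.13 for chondrocyte genes. With the floor at the 70th they were 1.98 for fast muscle, 1.19 for heart, 1.66 for brown fat, -0.91 for haemoglobin and 1.73 for sex chromosome genes. With a pseudocount of 100 and no floor they were 1.92 for slow muscle and 1.12 for heart genes. With the mean of the probe sets they were -0.34 for BMP and TGF-beta receptors, 0.82 for squamous, -0.44 for WNT and 0.26 for sex chromosome genes. Of 67 list medians, 13 changed sign under at least 1 of these alternatives, and none of the 13 was further from 0 than 0.11 as reported. Of the 164 genes named by rule, 24 moved by more than 0.34 with the floor at the 30th percentile, 67 at the 70th, 15 with the pseudocount, 32 with the mean of probe sets, 1 with the 2 arrays alone and 0 under the other scalings. None of those called changed sign under these alternatives. Where 1 pool is at the floor, a higher floor lowers the bound by construction; the cause of the other shifts was not tested.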

Other observations

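Regulators of splicing and RNAs kept in the nucleus formed a list written after values were seen. Of 38 measured members 9 were higher in the induced pool, 0 lower and 34 above 0, with a median log2 ratio of 0.55. Malat1, a long RNA of nuclear speckles, was at 1870 in the induced pool and at the floor in SM22-rtTA, with 860 in the uninduced, 1680 in the hypoxic and 1240 in the wild-type pool. The kinase Clk1, which phosphorylates splicing factors, was at 2224 in the induced pool and at 929 in SM22-rtTA, its relative Clk4 at 788 in the induced pool and 328 in SM22-rtTA, and the cyclin Ccnl1 at 2456 in the induced pool and 1079 in SM22-rtTA. Prpf4b, a kinase of the spliceosome, was at 1001 in the induced pool and 400 in SM22-rtTA, and Rbm25 at 791 in the induced pool and 379 in SM22-rtTA, although both have another probe set of opposite sign. The paraspeckle RNA Neat1 was at 5668 in the induced pool and 4083 in SM22-rtTA, a log2 ratio of 0.47. The splicing factors Srsf5 and Srsf9 had log2 ratios of -0.26 and -0.46. The induced pool was the highest of the 5 for 29 of the 38 and SM22-rtTA the lowest for 13, so members differ in which pool stands apart.

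Transcription factors of lung development, also listed after values were seen, had 6 of 25 lower, 1 higher and a median log2 ratio of -0.60. Beside Epas1, Foxf1 and Etv5, the lower ones were Tbx4, Irx1 and Hhex. Tbx4, a factor of lung mesenchyme, was at the floor in the induced pool and at 863 in SM22-rtTA, with 491 in the uninduced pool and the floor in wild type. Irx1 was at 387 in the induced pool and 818 in SM22-rtTA, with 814 in the uninduced pool, and Hhex at 306 in the induced pool and 630 in SM22-rtTA. The epithelial Nkx2-1 was at 380 in the induced pool and 637 in SM22-rtTA, a log2 ratio of -0.75, and Gata6 at 544 in the induced pool and 949 in SM22-rtTA, a log2 ratio of -0.80. SM22-rtTA was the highest of the 5 pools for 13 of the 25 and the induced pool the lowest for 9.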
